A study of Mus musculus with 2 samples.

Results

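The 7 genes described here encode the inhibitors of cyclin-dependent kinases: Cdkn1a, Cdkn1b and Cdkn1c of the Cip/Kip family and Cdkn2a, Cdkn2b, Cdkn2c and Cdkn2d of the Ink4 family. They were taken by symbol from the 23746 gene records measured by RNA sequencing in 2 mouse medulloblastomas, and each symbol matched 1 record. Medulloblastomas are cerebellar tumours. SmoM2 is a constitutively active form of Smoothened, which turns on Hedgehog signalling. Both tumours arose in CAG-CreER, Rosa26-SmoM2 mice that had 10 injections of tamoxifen, 1 in a Brg1+/+ animal (the control library) and 1 in a Brg1F/F animal (the knockout library). The CAG promoter is broadly active, so Cre was not limited to tumour cells by its driver, and the control carries the same Cre, SmoM2 transgene and tamoxifen. Brg1, encoded by Smarca4, is a catalytic subunit of the chromatin remodelling complex BAF. RNA came from dissected tumour tissue, and the labels give no age and no count of animals beyond the 2 libraries. The comparison asks how expression in this Hedgehog-driven tumour differs with loss of Brg1.

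Kinase inhibitors hold the cell before DNA replication. Ink4 proteins bind Cdk4 and Cdk6 and keep them from D-type cyclins, whereas Cip/Kip proteins bind cyclin-kinase complexes and block mainly Cdk2. In the cerebellum, granule neuron precursors leave the cell cycle as Kip1, the product of Cdkn1b, accumulates, and loss of Cdkn2c or Cdkn1b is known to speed Hedgehog-driven medulloblastoma in mice. Cdkn2a is unusual in making a pair of unrelated proteins from different first exons: Ink4a, a kinase inhibitor, and Arf, which binds Mdm2 and thereby stabilises p53.

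Because the Cdkn2a record covers both products, the bases before its start sites are shown, together with those before 1 of the starts of Cdkn2c, the other inhibitor gene that was lower by 2-fold or more in the knockout library. Sequences are from RefSeq (GRCm38.p6, the same coordinates as mm10). The promoter set used here covered 6 of the 7 genes (9 start sites) and had no entry for Cdkn1c, which was therefore not searched. Each run covers bases 250 to 51 before the start, 5′ to 3′ on the minus strand, and capitals mark the match to an E2F-type motif (TTTCCCGC, TTTCGCGC, TTTGCCGC or TTTGGCGC, searched on both strands). The Cdkn2a runs lie at chr4:89294670-89294869, before the first exon of Arf, and chr4:89282243-89282442, before the first exon of Ink4a, and the Cdkn2c run at chr4:109665423-109665622. RefSeq has a further Cdkn2c start 1384 bases upstream, which is not printed. The start shown is the one at the edge of the deposited record.
Cdkn2a, upstream start: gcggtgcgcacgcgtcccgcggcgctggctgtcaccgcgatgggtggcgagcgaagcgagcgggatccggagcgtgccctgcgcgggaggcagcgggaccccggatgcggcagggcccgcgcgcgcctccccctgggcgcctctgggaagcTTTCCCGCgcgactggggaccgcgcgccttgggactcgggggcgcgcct
Cdkn2a, downstream start: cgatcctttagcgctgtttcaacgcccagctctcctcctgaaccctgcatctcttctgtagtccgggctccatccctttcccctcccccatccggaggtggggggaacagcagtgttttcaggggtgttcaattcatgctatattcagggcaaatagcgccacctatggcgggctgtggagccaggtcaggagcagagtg
Cdkn2c: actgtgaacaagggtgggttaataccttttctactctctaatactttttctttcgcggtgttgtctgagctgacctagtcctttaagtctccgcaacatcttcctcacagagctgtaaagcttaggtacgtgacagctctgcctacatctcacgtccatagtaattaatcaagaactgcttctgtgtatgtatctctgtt

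Among the 9 start sites, 1 held a match in its 250 bases, the Arf start of Cdkn2a, with TTTCCCGC beginning 99 bases before the start on the gene's strand. Of all 32851 promoter windows of this length 1.86% held a match, and of the 12191 windows of expressed genes 3.19%. The same Arf window had a GC content of 78.4% and 40 CpG dinucleotides, against 60.0% and 7 before the Ink4a start. For Cdkn2c these values were 42.8% and 6 before the start shown, and 77.2% and 29 before the upstream start. The deposited record does not divide the Cdkn2a signal between the start sites, so the values below cannot be assigned to Arf or to Ink4a.

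The targeted gene Smarca4 had 14.05 FPKM (sequenced fragments corrected for the length of the transcript and the size of the library) in the control library and 3.77 in the knockout library, a record that also covers exons outside the floxed part. Each genotype had 1 library, hence no replicate error and no p-value, and "higher" and "lower" compare these 2 libraries. A size rule stood in for a test: log2((knockout FPKM + 1)/(control FPKM + 1)) of at least 1 or at most -1, among the 13279 records with at least 1 FPKM in either library. All 7 inhibitor genes passed that filter and carried the status OK in both libraries. Of 10 markers of granule precursors and Hedgehog tumours, 5 were lower by 2-fold or more and 0 higher (summed FPKM 831.7 and 401.4). Gli1 had 89.2 and 9.03 FPKM, Atoh1 67.0 and 10.4 FPKM and Mycn 85.8 and 8.52 FPKM, detected in both libraries but far lower in the knockout. The 5 markers within 2-fold went both ways. Barhl1 and Ptch1 (65.1 and 46.45 FPKM) were lower, and Pax6 (18.05 and 32.0 FPKM) was higher. Zic1 and Zic2 had log2 ratios of 0.42 and -0.34. From the midpoints of the lower and upper FPKM bounds that the authors deposited, these were 0.007 and 0.019, so no direction is given for the Zic genes. Markers of other cell types differed between the libraries as well. All 8 Purkinje cell markers were higher by 2-fold or more in the knockout library (summed FPKM 9.02 and 633.4), as were 8 of 8 astrocyte (489.5 and 2541), 7 of 7 oligodendrocyte (60.4 and 681.4), 5 of 5 expressed GABAergic interneuron (61.0 and 538.2), 8 of 10 granule neuron (165.8 and 606.3) and 6 of 8 microglia markers (63.8 and 134.3). Fewer in these lists passed the rule for endothelial cells (2 of 6 expressed, 25.5 and 67.7) and for pericytes and meninges (2 of 6, 32.7 and 95.5), none (0) of 5 did for choroid plexus (1048 and 1102), and 4 of 4 expressed erythroid records did (6.78 and 31.6). All 10 markers of dividing cells were lower by 2-fold or more (838.2 and 224.4), Mki67 among them with 40.8 and 10.2 FPKM. No marker in these lists was at 0 in either library. In bulk tissue, fewer cells of a type and less RNA per cell cannot be told apart, and the part of cell composition in the values below was not tested. Xist (268.3 and 0.369 FPKM) and the Y-linked gene Eif2s3y (0.0265 and 63.4 FPKM) also differed, so sex and genotype cannot be told apart here.

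By the size rule, 2 of the 4 Ink4 genes were lower in the knockout library and 0 of the 3 Cip/Kip genes passed it in either direction. Cdkn2a and Cdkn2c were lower by 2-fold or more, Cdkn2b and Cdkn2d were lower by less than 2-fold, Cdkn1a and Cdkn1c were higher by less than 2-fold, and Cdkn1b was nearly equal. Of the 7 genes, 2 (28.6%) were lower by 2-fold or more and 0 higher, whereas among all expressed records 8.67% were lower by 2-fold or more and 16.1% higher by 2-fold or more. The median log2 ratio was 0.46 for the 3 Cip/Kip genes and -0.81 for the 4 Ink4 genes, beside 0.09 over all expressed records. With so few genes and no replicates, the difference between the families was not tested. The authors also deposited a lower and an upper bound for each FPKM, by a method not given in the sources used here. These bounds did not overlap between libraries for 3 genes that were lower and 2 that were higher, but separation was common: 35.1% of expressed records had separate bounds and were lower, and 42.7% had separate bounds and were higher.

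**Figure D1:**
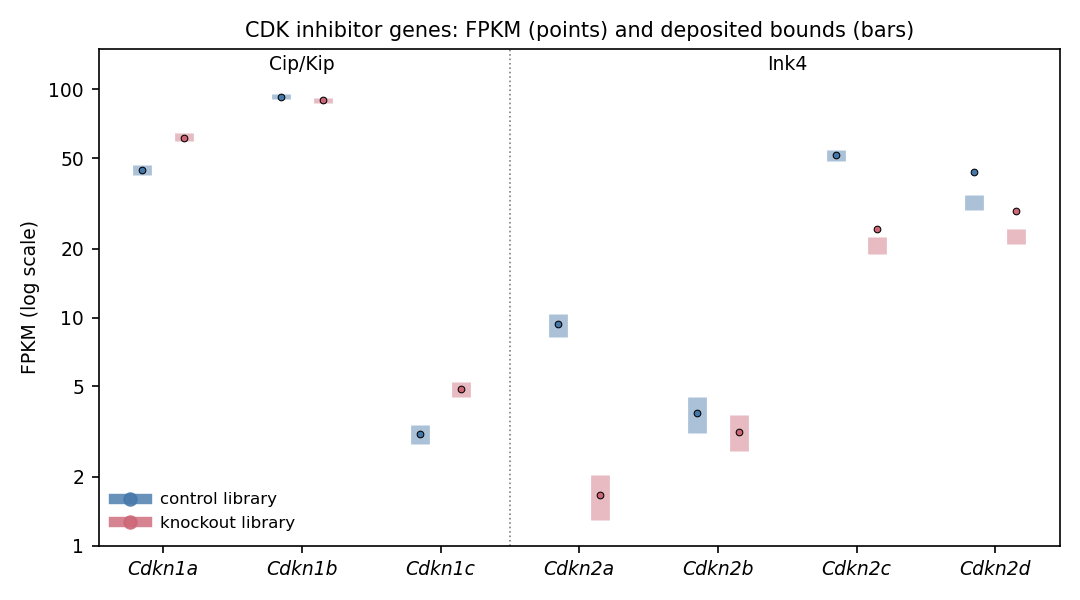
FPKM of the 7 inhibitor genes on a log axis, with a point for each library (blue control, red Brg1 knockout) and a bar from the deposited lower to the deposited upper bound. On this axis Cdkn2a shows the widest gap, from 9.33 to 1.67 FPKM, and the points of Cdkn2d (both libraries) and of Cdkn2c (knockout) lie above their own bars.

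Cdkn1b (chromosome 6, 134920401 to 134925525, mm10, plus strand) encodes Kip1, the inhibitor tied to cell cycle exit of granule precursors. It was the most abundant of the 7 genes in both libraries, with 92.98 FPKM in the control (bounds 90.5 to 95.8) and 90.3 FPKM in the knockout library (bounds 87.1 to 91.9). The bounds overlapped, and the knockout library held 97.1% of the control FPKM. Its log2 ratio was -0.04, and it changed sign, to 0.14, after the FPKM sums of the libraries were made equal, so no direction is given.

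Cdkn1a (chromosome 17, 29090986 to 29100722, plus strand) encodes Cip1, the classical p53 target among the inhibitors. It had 44.3 FPKM in the control (bounds 42.2 to 46.7) and 61.5 FPKM in the knockout library (bounds 59.4 to 64.3), 139% of the control value. The bounds were apart and the log2 ratio of 0.46 was short of 2-fold. Of the expressed records, 67.4% had a lower ratio than Cdkn1a, so its value lay well inside the bulk of the distribution. The gene of p53 itself, Trp53, went the other way, with 91.9 and 24.6 FPKM (log2 ratio -1.86).

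Cdkn1c (chromosome 7, 143458339 to 143461050, minus strand) encodes Kip2 and is an imprinted gene expressed from the maternal allele. It was weakly expressed, with 3.07 FPKM in the control (bounds 2.78 to 3.37) and 4.84 FPKM in the knockout library (bounds 4.48 to 5.20), and its log2 ratio was 0.52. At this level, only 25.6% of expressed records were below it in the control library and 30.5% in the knockout library. GENCODE M21 places an antisense gene over Cdkn1c and an unclassified minus-strand gene over Cdkn1a. Whether the counting used strand is not given in the sources used here, so reads of these overlapping genes may be included.

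Cdkn2a (chromosome 4, 89274473 to 89294619, minus strand), the Ink4a and Arf gene, had the lowest ratio of the 7. It had 9.33 FPKM in the control (bounds 8.25 to 10.4) and 1.67 FPKM in the knockout library (bounds 1.29 to 2.05), so that 17.9% of the control value was left. The bounds were far apart, the log2 ratio was -1.95, and 1.63% of expressed records had a lower ratio. In level it went from the middle of the expressed records, with 52.4% below it in the control library, to near the bottom, with 9.1% below it in the knockout library.

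Cdkn2b (chromosome 4, 89306289 to 89311032, minus strand) encodes Ink4b, an inhibitor induced by TGF-beta, and a gap of 11.7 kb separates its record from that of Cdkn2a. Its values were 3.83 FPKM in the control (bounds 3.12 to 4.504) and 3.16 FPKM in the knockout library (bounds 2.60 to 3.74). The bounds overlapped, and the log2 ratio of -0.22 stands beside -1.95 for the adjacent Cdkn2a. The transcripts of the pair share no exact run longer than 23 bases in GENCODE M21.

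Cdkn2c (chromosome 4, 109660876 to 109665372, minus strand) encodes Ink4c, which restrains proliferation of granule precursors. It was the most abundant Ink4 gene in the control library, with 51.4 FPKM (bounds 48.7 to 54.2), and had 24.4 FPKM in the knockout library, above its own deposited bounds of 19.0 to 22.5. The value in the knockout library was 47.4% of that in the control. In absolute terms this was the widest gap of the 7, -27.0 FPKM. The log2 ratio of -1.05 lay just past the size rule. It was -0.88, short of the rule, with equal FPKM sums, and -1.27 from the midpoints of the bounds.

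Cdkn2d (chromosome 9, 21288464 to 21291209, minus strand) encodes Ink4d, which together with Kip1 keeps mature neurons from dividing. It lies 328 kb from the floxed gene Smarca4 on the same chromosome, measured between starts. Its values were 43.7 FPKM in the control and 29.2 FPKM in the knockout library, 66.8% of the control value, with a log2 ratio of -0.57. Both values lay above their own bounds, 29.6 to 34.4 and 20.9 to 24.55, which did not overlap each other. An FPKM outside its own bounds was no exception in these files, since it occurred for 49.0% of expressed records in the control and 51.2% in the knockout library.

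**Figure D2:**
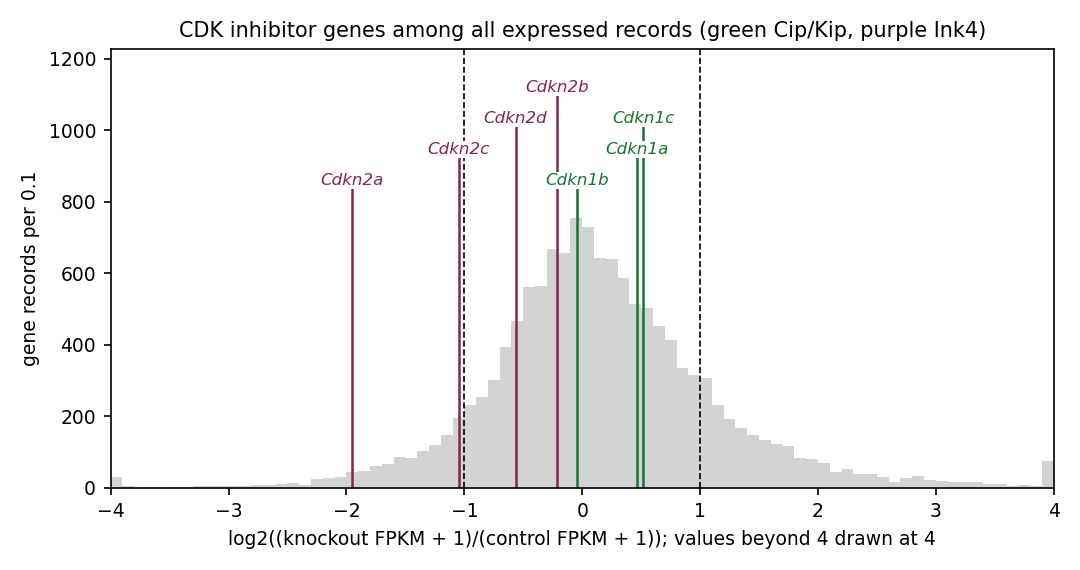
Histogram of the log2 ratio of knockout to control for the 13279 expressed records in steps of 0.1, with vertical lines at the ratios of the 3 Cip/Kip genes (green) and the 4 Ink4 genes (purple) and dashed lines at the size rule of -1 and 1. Cdkn2a at -1.95 and Cdkn2c at -1.05 are the lines to the left of the rule, and the other 5 lie between the dashed lines.

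The order of the 7 genes by FPKM differed between the libraries. In the control library it was Cdkn1b, Cdkn2c, Cdkn1a, Cdkn2d, Cdkn2a, Cdkn2b and Cdkn1c. In the knockout library it was Cdkn1b, Cdkn1a, Cdkn2d, Cdkn2c, Cdkn1c, Cdkn2b and Cdkn2a. Cdkn2a thus went from the fifth place to the last and Cdkn2c from the second to the fourth, while Cdkn1a moved up to the second. Without replicates no place in these orders can be called separate from the next, and some neighbours lay close together. In the control library the bounds of Cdkn2b and Cdkn1c overlapped, and Cdkn1a and Cdkn2d differed by under 1 FPKM, although the bounds of Cdkn2d lay below those of Cdkn1a. In the knockout library the bounds of Cdkn2d and Cdkn2c overlapped.

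As a family, the Cip/Kip genes summed to 140.4 FPKM in the control and 156.6 FPKM in the knockout library (112%), and the Ink4 genes to 108.2 and 58.4 FPKM (54.0%). Summed over all 7 genes, inhibitor FPKM was 248.6 and 215.0. The Cip/Kip share of that total went from 56.5% to 72.8%, a Cip/Kip to Ink4 ratio of 1.3 in the control and 2.68 in the knockout library. Within the Cip/Kip family Cdkn1b made up 66.2% and 57.7%, and Cdkn1a 31.6% and 39.2%. Within the Ink4 family Cdkn2c made up 47.5% and 41.8%, Cdkn2d 40.3% and 50%, and Cdkn2a 8.62% and 2.86%. The Ink4 difference was thus carried in FPKM mainly by Cdkn2c and Cdkn2d. Without Cdkn2c the other 3 genes summed to 56.8 and 34.0 FPKM (59.9%).

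Most of the kinases and cyclins that these proteins act on were lower in the knockout library. Of the 4 kinases, 3 (75%) were lower by 2-fold or more and 0 higher, with a median log2 ratio of -1.64, beside 8.67% lower and a median of 0.09 over all expressed records. Cdk1, the mitotic kinase, had 89.0 and 19.6 FPKM, and Cdk2, the main Cip/Kip target, had 37.55 and 10.6 FPKM. Cdk4 had 381.8 and 129.3 FPKM, whereas Cdk6, the other Ink4 target, had 10.3 and 11.1 FPKM (log2 ratio 0.10, and -0.12 from the bound midpoints). Of 9 cyclins, 8 (88.9%) were lower by 2-fold or more and 0 higher (median -1.90). Ccnd1 had 107.1 and 16.6 FPKM, Ccnd2 158.7 and 58.8 FPKM, and Ccnd3 42.1 and 16.4 FPKM, the last at -0.95 from the bound midpoints. The replication cyclins Ccna2 (138.4 and 28.4 FPKM) and Ccne2 (22.1 and 5.16 FPKM) were also lower, and Ccne1 (5.24 and 2.97 FPKM, log2 ratio -0.65) stayed within 2-fold. Rb1, the pocket protein gene whose product these kinases inactivate, had 26.4 and 25.9 FPKM. Of the 3 pocket protein genes, 1 (33.3%) was lower by 2-fold or more and 0 higher. It was Rbl1 (10.1 and 2.96 FPKM), whereas Rbl2 had 8.35 and 10.6 FPKM.

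Set against their kinases within each library, which does not depend on library scaling, the inhibitors made up a larger part in the knockout library. The Ink4 sum was 0.276 times the sum of Cdk4 and Cdk6 (392.1 FPKM) in the control and 0.416 times it (140.4 FPKM) in the knockout library, 1.51 times as much. The Cip/Kip sum was 1.11 times the sum of Cdk1 and Cdk2 (126.6 FPKM) in the control and 5.19 times it (30.2 FPKM) in the knockout library, 4.68 times as much. Most of that difference lay in the kinases, since the Cip/Kip sum in the knockout library was 112% of the control value. Cdk1 held 89.0 and 19.6 FPKM of the kinase sum, and Cdk4 and Cdk6 were left out of it. Most of the listed neuron, astrocyte and oligodendrocyte markers were higher in the same library, as given above. The part of cell composition in these ratios was not tested. These are ratios of RNA in whole tissue and say nothing of protein or of single cells.

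**Figure D3:**
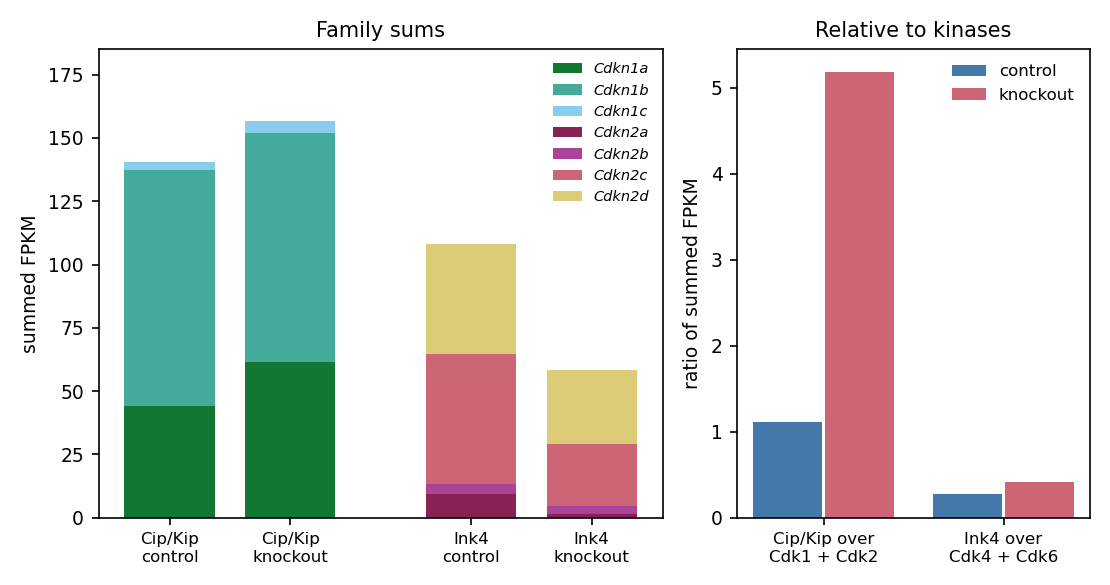
Left, FPKM summed over the 3 Cip/Kip and the 4 Ink4 genes in each library, stacked by gene. Right, the same sums divided by the summed FPKM of the kinases they act on, blue for control and red for knockout. The Ink4 stack is lower in the knockout library (58.4 against 108.2 FPKM), while both ratios to kinases are higher there (5.19 against 1.11 and 0.416 against 0.276).

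Inhibitor proteins are also controlled by degradation, and part of that machinery was lower in the knockout library. The median of 11 genes for the turnover of Cip/Kip proteins was -0.05, beside 0.09 over all expressed records. By 2-fold or more, 3 (27.3%) were lower and 0 higher, beside 8.67% and 16.1% over all expressed records. Those 3 were the substrate receptor gene Skp2 (24.5 and 4.83 FPKM), whose product marks Kip1 for degradation, its cofactor gene Cks1b (100.6 and 29.4 FPKM), and Dtl (31.8 and 5.94 FPKM), the receptor that targets Cip1 during replication. The other 8, cullins and shared subunits among them, had log2 ratios between -0.19 and 0.69.

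Among 11 transcriptional regulators of Cip/Kip genes, 4 (36.4%, beside 8.67% over all expressed records) were lower by 2-fold or more, and the median was -0.51. The 2 that were higher (18.2%) were near the 16.1% over all records. Myc and Mycn, whose products repress inhibitor genes, were lower, with 11.2 and 2.88 FPKM and with 85.8 and 8.52 FPKM. So were Trp53 (91.9 and 24.6 FPKM) and Sp1 (20.98 and 9.99 FPKM), the last right at the rule with a log2 ratio of -1.0. The count of lower genes was 3 with equal FPKM sums and 5 after centring the ratios on their median. The forkhead gene Foxo3, an activator of Cdkn1b, had 3.56 and 8.78 FPKM (log2 ratio 1.10). Its relatives Foxo1 (5.77 and 10.8 FPKM) and Foxo4 (12 and 8.11 FPKM) stayed within 2-fold, in opposite directions. Zbtb17, the gene of Miz1, through which Myc represses Cdkn2b and Cdkn1a, had 6.03 and 5.95 FPKM.

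Of 15 regulators of the Ink4 locus 13 were expressed, with a median of -0.55. By the 2-fold rule 1 (7.69%) was lower and 2 (15.4%) higher, shares close to those over all expressed records (8.67% and 16.1%), so the counts are no result about this list and its genes are given as values. Polycomb group proteins are the main known repressors of this locus. Bmi1 had 60.9 and 33.3 FPKM (log2 ratio -0.85, and -1.03 from the bound midpoints), Ezh2 had 24.8 and 12.3 FPKM (-0.96), and Cbx8 had 3.78 and 2.82 FPKM. The chromobox genes Cbx2 (17.7 and 3.35 FPKM, log2 ratio -2.10) and Cbx7 (2.15 and 8.08 FPKM, log2 ratio 1.53) passed the rule in opposite directions. The H3K27 demethylase gene Kdm6b had 9.84 and 6.60 FPKM.

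**Figure D4:**
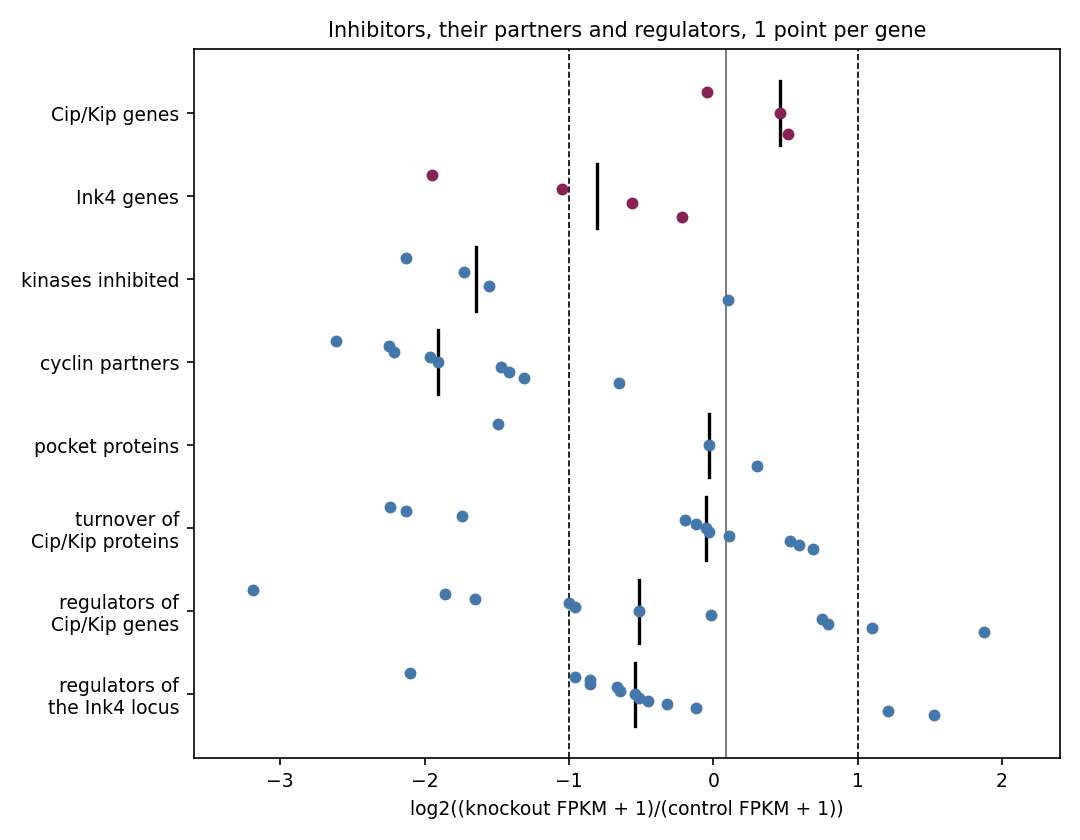
Log2 ratio of knockout to control for each expressed gene of the 2 inhibitor families (purple) and of the partner and regulator lists (blue). Black bars mark the median of a list, the grey line the median of all expressed records (0.09) and dashed lines the size rule. The kinases and cyclins lie mostly below -1, the Ink4 genes range from -1.95 to -0.22 and the Cip/Kip genes from -0.04 to 0.52.

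The expressed genes nearest to the inhibitor genes had mixed ratios. Taking 3 expressed records on each side of each gene gave 36 distinct neighbours that are not inhibitor genes themselves. Records that were not expressed were passed over, so a neighbour need not be the adjacent gene. Distances between starts ran from 8.69 to 5190 kb. Of these, 4 (11.1%) were lower by 2-fold or more and 2 (5.56%) higher, beside 8.67% and 16.1% over all expressed records. Around Cdkn2c all 6 neighbours had ratios above 0, from 0.24 to 0.999, with Faf1 (11.3 and 13.5 FPKM) and Rnf11 (51.1 and 70.9 FPKM) the nearest. At the Cdkn2a locus, the gene on the side away from Cdkn2b, Mtap, which encodes an enzyme of methionine salvage, was also lower, with 15.9 and 4.51 FPKM (log2 ratio -1.61). The neighbour of Cdkn2b on its other side, Elavl2, 1940 kb away, had 46.2 and 28.2 FPKM. Nearest to Cdkn2d, Kri1 (3.38 and 2.63 FPKM) and Slc44a2 (30.4 and 34.1 FPKM) stayed within 2-fold. Both nearest neighbours of Cdkn1a were lower, although Cdkn1a was higher. They were Srsf3 (394.0 and 161.0 FPKM, 58.3 kb away) and Ppil1 (60.1 and 16.0 FPKM, 160 kb away). Nearest to Cdkn1b, the record 1190002F15Rik had 35.5 and 6.94 FPKM and 2810454H06Rik 1.05 and 2.12 FPKM. Nearest to Cdkn1c, Nap1l4 (45.8 and 42.1 FPKM) and Tssc4 (40.8 and 30.25 FPKM, 389 kb away) stayed within 2-fold.

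Likeness of pattern was measured as the distance between records in log2(FPKM + 1) over the 2 libraries, which so few libraries make a weak description. The nearest record was Ska1 for Cdkn2a (8.94 and 1.63 FPKM), Hnrnpd for Cdkn2c (51.6 and 24.2 FPKM), Ergic1 for Cdkn2d (44.2 and 28.7 FPKM) and Spen for Cdkn2b (3.85 and 3.18 FPKM). For the Cip/Kip genes it was Clasp2 for Cdkn1a (44.99 and 61.2 FPKM), Cs for Cdkn1b (89.3 and 90.5 FPKM) and Xrcc4 for Cdkn1c (3.05 and 4.88 FPKM). Within a distance of 0.25 there were 15 records around Cdkn2a and 45 around Cdkn2c, but 231 around Cdkn2b, so many records share these patterns.

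The log2 ratios of the inhibitor genes were recomputed under other pseudocounts and scalings. Making the FPKM sums of the libraries equal (388032 in the control and 343028 in the knockout library) moved the median over all expressed records from 0.09 to 0.24 and each inhibitor ratio upward.

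**Figure D5:**
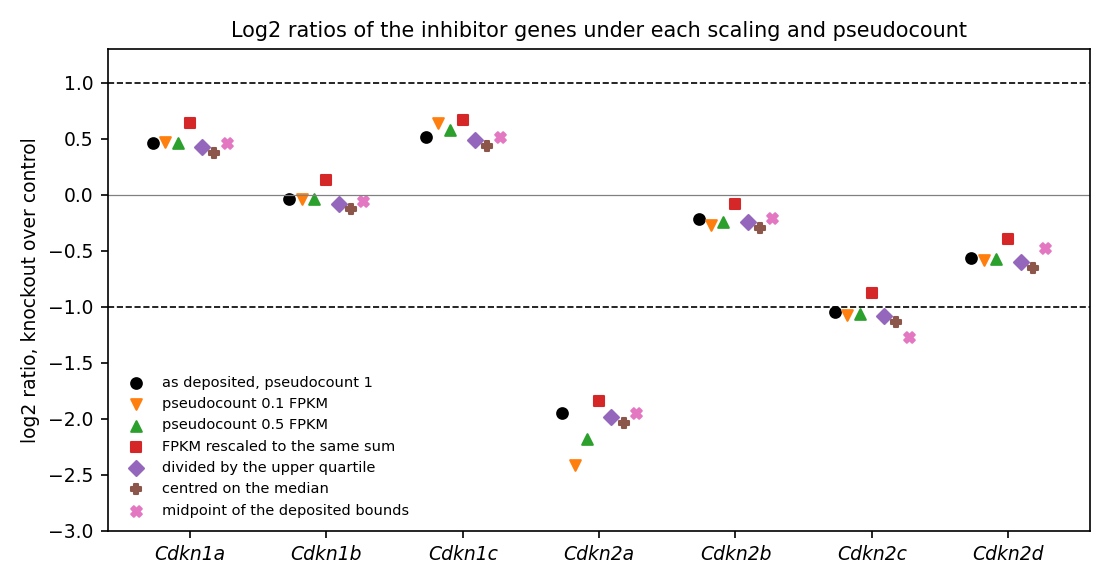
Log2 ratio of each inhibitor gene under 7 settings of pseudocount and scaling, with dashed lines at the size rule. Cdkn2a stays below -1 at all 7 settings (-2.41 to -1.84), Cdkn2c crosses the rule at 1 setting (-1.27 to -0.88), and Cdkn1b lies on both sides of 0 (-0.13 to 0.14).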

How the data were processed

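RNA sequencing of total RNA from 2 dissected tumours (1 library per genotype, grouped by the genotype labels) gave 1 deposited table each. The values are FPKM per gene record, which the authors deposited with a lower and an upper bound and a status, per the file headers. Of tools and builds, the submitters' processing notes name Cuffdiff 2.1.1 and mm10, with no role for either. Aligner, annotation, filters and strand setting: not given in the sources used here. Both tables give FPKM without counts. Ratios of 650 low records (under 0.05 FPKM) did not pile up at a single step (at most 7.69% in 1 narrow log2 bin), so depth is unknown and no interval was computed. Starts in the files count from 0 (5 of the 7 then equal the RefSeq start) and are given from 1.

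The tables were joined by record, and log2 ratios, the size rule, sums and distances were computed in Python 3.11.15 (pandas 2.3.3, numpy 2.4.6, figures with matplotlib 3.10.9). The size rule was also run on simulated data, which checks its code and not the spread between libraries. The genes, lists and rules were chosen with earlier results of these data known. Partner genes were named by a fixed list of symbols, neighbours by position, like records by distance, and Gli1, Atoh1, Xist, Eif2s3y by their use as checks. Rbl1, Rbl2, Sp1 and the precursor and tumour markers within 2-fold were named in addition, with their values known. Alternatives were pseudocounts of 0.1 and 0.5, rescaling, upper quartile, centring, bound midpoints, filters and fold rules.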

Additional observations from a re-analysis of the deposited data

How the results depend on the processing

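Of 42 recomputed log2 ratios of the inhibitor genes (7 genes, 6 other pseudocounts or scalings), 41 kept their side of the 2-fold rule. The exception was Cdkn2c at -0.88 with equal FPKM sums, so that 1 inhibitor gene was then lower by 2-fold or more. With a 4-fold rule 0 were. Rescaling adds the same shift to every high gene. The 8 recomputed family sums and kinase ratios kept their side of the rule, with -0.999 to -0.71 for the Ink4 sums. Of 96 list counts 92 stayed within 1.5 times: 1 regulator of Cip/Kip genes was higher at a minimum of 5 FPKM, and 2 regulators of the Ink4 locus were lower at a pseudocount of 0.1, after centring and from bound midpoints. Leaving out the filter could not change a count. At a pseudocount of 1, records under 1 FPKM in both libraries cannot pass the rule. No paired analysis was possible because each genotype had 1 library, and no library could be left out. Depth is unknown, so the precision of low genes such as Cdkn1c, Cdkn2b and Cdkn2a cannot be stated.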
